A study of Capra hircus with 12 samples.

Results

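Interferon-stimulated and nucleic acid sensing genes were followed in goat temporomandibular joint (TMJ) cells that received IL-1β alone or IL-1β with LOXL2, a lysyl oxidase family enzyme delivered by an adenovirus (Ad5-LOXL2). The set was a list of 44 gene names, which stand for 42 genes because the sensor DDX58 and the adaptor TMEM173 were each written under 2 names. Rows of the count tables carried 37 of the names. No row was found under IFIT1, OAS1, OAS2, USP18 or CGAS, so these were not analysed under those names. Of the 28910 rows, 14164 were tested in the superficial layer cells (SLC) and 13806 in the medial layer cells (MLC), where at least 3 of the 6 libraries of the layer held 10 counts or more. The members tested were 36 in SLC and 35 in MLC, and ISG20 (at most 7 counts in a library) was tested in neither.

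Cells detect viral RNA through the helicases RIG-I (DDX58) and MDA5 (IFIH1) and through the kinase PKR (EIF2AK2), and detect DNA in the cytosol through cGAS and its adaptor STING (TMEM173). PKR halts translation, while the helicases and STING act through the kinase TBK1 and the factors IRF3 and IRF7 to switch on interferon genes. Secreted interferon then acts on its receptor, and a complex that holds STAT2 and IRF9 switches on the interferon-stimulated genes, whose products block viral replication. Adenoviral vectors are themselves a known trigger of these sensors.

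The cells came from the mandibular condyles of female goats aged 6 to 9 months and were expanded to passage 3 to 5 before use. There were 3 libraries in each of 4 groups: SLC with IL-1β, SLC with IL-1β+LOXL2, MLC with IL-1β and MLC with IL-1β+LOXL2. IL-1β, an inflammatory cytokine, was given to all 4 groups for 1 h, after overnight transduction where LOXL2 was given. The study's methods name an empty adenovirus (Ad5-Empty) as the control in the flow cytometry of these cells, but for the cells that were sequenced they do not say whether the IL-1β groups received it, so an effect of LOXL2 and an effect of the vector cannot be told apart in any difference given here. Nor do they say whether replicates were separate cultures or animals, so p-values measure the spread between these libraries, which may be technical.

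Library totals ranged from 14158607 to 28931652 counts. The first IL-1β+LOXL2 library of each layer lay close to the IL-1β libraries of its layer, with a median absolute log2 distance over genes of 0.16 in SLC and 0.13 in MLC, against 0.28 to 0.53 for the other IL-1β+LOXL2 libraries and 0.09 to 0.13 among the IL-1β libraries. The goat LOXL2 gene was lower in every SLC library labelled IL-1β+LOXL2, at 457 to 559 CPM (counts scaled to 1000000 per library) against 614 to 634 with IL-1β. In MLC the groups overlapped, at 743 to 816 CPM against 768 to 877 with IL-1β. The transgene's sequence was not at hand, so this is no check of the labels. COL1A1, on the list of fibroblast and superficial layer markers, was abundant in every library (30704 to 37797 CPM), while PRG4 on the same list ranged from 3.64 to 7.27 CPM. The summed level of that list overlapped between SLC and MLC. Of 8 chondrocyte markers, 4 held 10 counts or more in 3 libraries of the SLC groups and 6 in the MLC groups, with a summed level of 137 to 146 CPM in SLC and 607 to 712 CPM in MLC. COL2A1, the collagen that defines hyaline cartilage, ranged from 0 to 20.8 CPM. Among markers of immune cells, which respond strongly to interferon, PTPRC reached at most 2 counts and MS4A1 0 counts in a library, while CD14 ranged from 47.1 to 133 CPM.

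The first question was which of these genes differed when LOXL2 was added to IL-1β. Over both layers together, 16 of the 36 members tested passed the threshold of an adjusted p under 0.05 (edgeR), against 50.8% of all genes tested. The change went both ways. IFI6, BST2, IRF9, IFI35, IRF3, B2M and IFIT3 rose, and EIF2AK2, DDX58, HERC6, DTX3L, PARP14, ADAR, STAT2, PARP9 and TRIM25 fell. The 7 that rose stood against 26.6% of all genes and the 9 that fell against 24.2%. The median log2 fold change was −0.06 over the members and 0.01 over all genes tested. This comparison averages the LOXL2 effect of both layers over all 12 libraries and shares its libraries with the comparisons within each layer.

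Within SLC, none of the 36 members passed, and neither did any of the 14164 genes tested (0%). At an unadjusted p under 0.05 there were 15 members, against 43.2% of all genes, and the smallest adjusted p of a member was 0.0706. DESeq2 called 7 members (B2M, IFI6 and IRF9 higher, DTX3L, PARP14, EIF2AK2 and DDX58 lower), against 29.9% of all genes. Without the first SLC IL-1β+LOXL2 library edgeR called 21 of the 36, 11 higher and 10 lower, against 62.3% of all genes. Within MLC, 4 of 35 members passed, against 21.6% of all genes: IFI6 rose, and EIF2AK2, DDX58 and PARP9 fell. Fitted on all 12 libraries with a shared spread, 0 members passed within MLC (0% of all genes) and 15 passed within SLC (42.1%). Without the first MLC IL-1β+LOXL2 library 16 passed, against 48.1%, while leaving out the second MLC IL-1β+LOXL2 library, or the first or the third of the MLC IL-1β libraries, left 0. Without the second MLC IL-1β library or the third MLC IL-1β+LOXL2 library 2 passed, EIF2AK2 and IFI6. For the MLC fits that left 0 or 2 members, the share of all genes that passed is not given here. These lower counts may therefore not be particular to the members. Without the first IL-1β+LOXL2 library of both layers, 23 of 36 passed over both layers, against 66.8%.

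**Figure D1:**
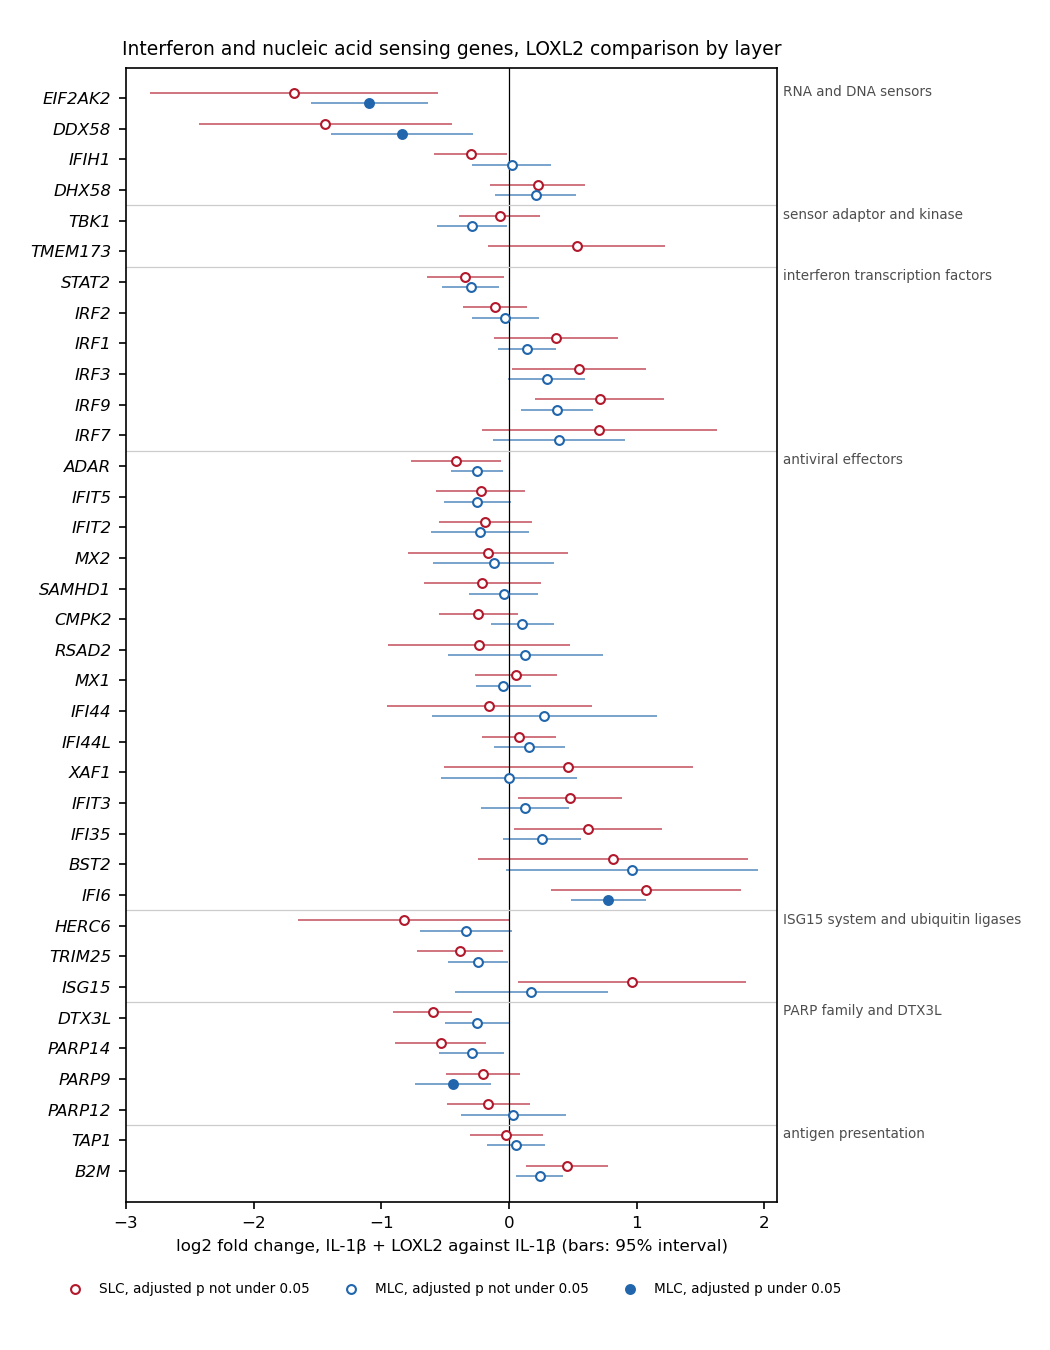
Log2 fold change of IL-1β+LOXL2 against IL-1β for each member tested, grouped by role, in SLC (red) and MLC (blue), with 95% intervals from edgeR. Filled points passed an adjusted p of 0.05, which 4 members did in MLC and 0 in SLC. EIF2AK2 and DDX58 lie farthest to the left in both layers, and IFI6 and BST2 lie to the right.

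RNA sensors held the largest falls of the set. EIF2AK2, the kinase PKR that halts translation when it binds double-stranded RNA, is on chromosome 11 (19421560 to 19455189, ARS1.2). Its level in SLC was 24.0, 25.6 and 18.3 CPM with IL-1β and 13.2, 3.10 and 5.05 CPM with IL-1β+LOXL2. In MLC it was 22.5, 16.1 and 20.7 CPM with IL-1β and 12.9, 7.23 and 7.44 CPM with IL-1β+LOXL2. All 6 IL-1β+LOXL2 libraries lay below every IL-1β library of their layer, and the first of each layer lay nearest to them. EIF2AK2 had a log2 fold change of −1.68 ± 0.48 (SE; adjusted p = 0.0706) in SLC and of −1.09 ± 0.21 (adjusted p = 0.0187) in MLC. Over both layers it fell to 0.382 of the IL-1β level (log2 fold change −1.39 ± 0.29, adjusted p = 0.00531).

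DDX58, the helicase RIG-I on chromosome 8 (11385490 to 11432023), read the same way. In SLC it stood at 12.6, 12.2 and 8.79 CPM with IL-1β and at 7.02, 1.92 and 3.64 CPM with IL-1β+LOXL2. In MLC it stood at 8.82, 7.60 and 9.60 CPM and at 7.03, 4.58 and 2.88 CPM. The groups did not overlap in either layer. Over both layers DDX58 fell to 0.455 of the IL-1β level (log2 fold change −1.14 ± 0.28, adjusted p = 0.00726), and in MLC its log2 fold change was −0.84 ± 0.26 (adjusted p = 0.0382).

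The related helicases gave other values. IFIH1, the sensor MDA5 for long double-stranded RNA, was at 10.4, 9.72 and 10.7 CPM in SLC with IL-1β and at 8.25, 8.66 and 8.27 CPM with IL-1β+LOXL2. In MLC it was at 8.61, 9.11 and 9.33 CPM and at 10.4, 8.60 and 8.47 CPM. The groups were apart in SLC and overlapped in MLC, and neither comparison passed (adjusted p = 0.104 and 0.922). DHX58, the helicase LGP2 that modulates the other 2, overlapped in both layers and had a log2 fold change of 0.22 ± 0.12 over both (adjusted p = 0.121). The DNA sensor cGAS had no row under CGAS. A row under its older name MB21D1, which is outside the list, had a log2 fold change over both layers of −0.03 (95% interval −0.21 to 0.14, adjusted p = 0.746).

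**Figure D2:**
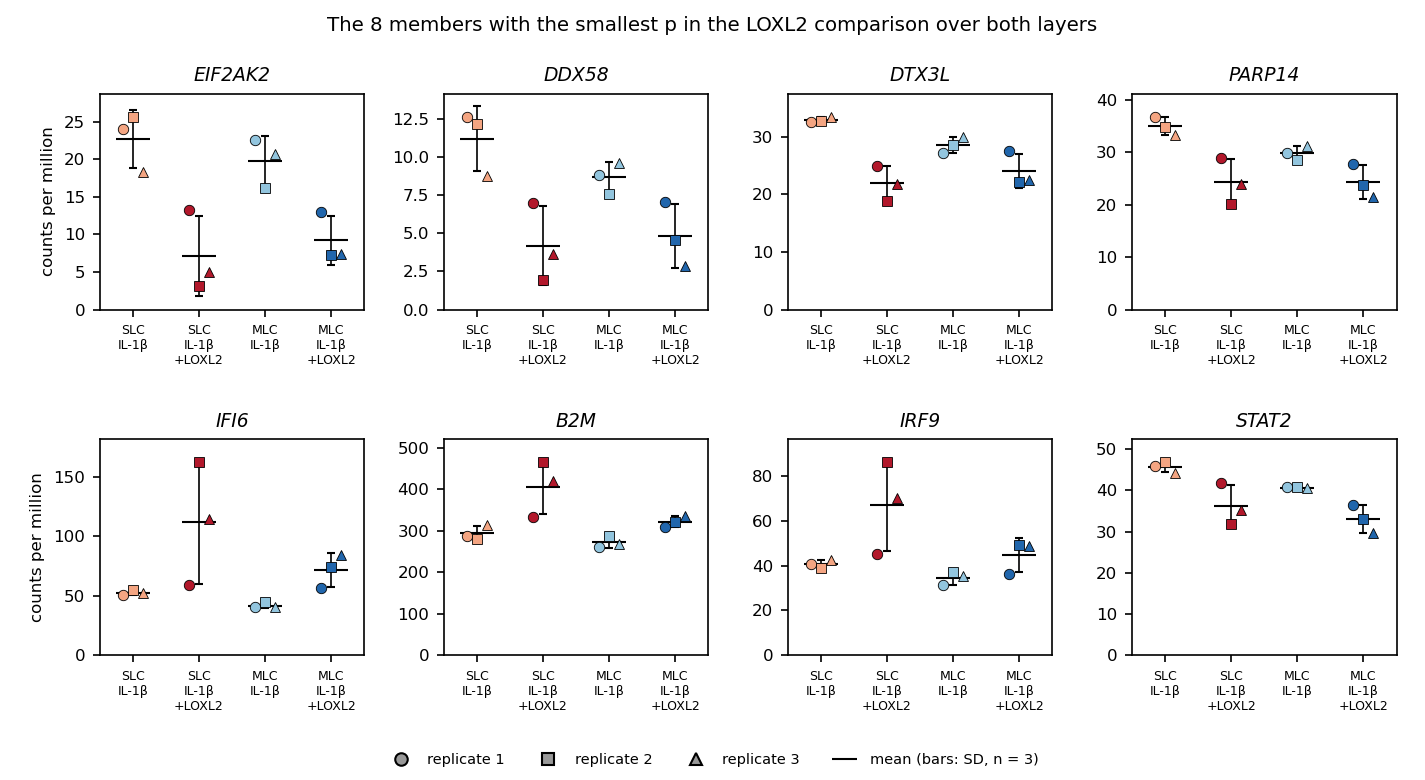
CPM of the 8 members with the smallest p in the LOXL2 comparison over both layers, by library. Each symbol is a library, horizontal bars are means and vertical bars SD (n = 3). EIF2AK2, DDX58, DTX3L, PARP14 and STAT2 are lower with LOXL2 and IFI6, B2M and IRF9 higher, and the first IL-1β+LOXL2 library (circle) of each layer is usually the nearest to the IL-1β libraries.

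Below the sensors, TMEM173, the adaptor STING, was near the limit of detection. SLC libraries held 1.19, 1.82 and 0.889 CPM with IL-1β and 2.05, 1.84 and 1.82 CPM with IL-1β+LOXL2, and MLC libraries held under 1 CPM, with too few counts for the test within MLC. Its log2 fold change over both layers was −0.06 (95% interval −0.64 to 0.52, adjusted p = 0.856). TBK1, the kinase that both sensor routes use, ranged from 14.2 to 22.6 CPM, and its log2 fold change was −0.17 ± 0.09 over both layers (adjusted p = 0.118). Neither the adaptor nor the kinase passed the test in a LOXL2 comparison.

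The transcription factors split. IRF9, the DNA-binding subunit of the interferon-activated complex, was at 40.6, 38.8 and 42.6 CPM in SLC with IL-1β and at 45.3, 86.1 and 70.0 CPM with IL-1β+LOXL2. MLC libraries held 31.3, 37.1 and 35.2 CPM and 36.2, 49.4 and 48.9 CPM. SLC groups did not overlap, and in MLC the first IL-1β+LOXL2 library lay within the IL-1β range. IRF9 rose over both layers by 0.55 ± 0.14 on the log2 scale (adjusted p = 0.00801).

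STAT2, the partner of IRF9 in that complex, went the other way. It was at 45.9, 46.8 and 44.2 CPM in SLC with IL-1β and at 41.9, 31.8 and 35.2 CPM with IL-1β+LOXL2. The MLC values were 40.8, 40.8 and 40.5 CPM and 36.4, 33.1 and 29.8 CPM. The groups did not overlap in either layer, and STAT2 fell over both layers by 0.32 ± 0.08 on the log2 scale (adjusted p = 0.00751). STAT2 overlaps IL23A in the annotation, and how strand was treated in counting is not given, so reads of these genes cannot be separated here.

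Of the interferon regulatory factors that act upstream, IRF3, the factor that TBK1 activates, rose by 0.43 ± 0.15 on the log2 scale over both layers (adjusted p = 0.0288), with overlapping groups within each layer. IRF7, which amplifies the interferon response, was at 1.24, 1.60 and 1.48 CPM in SLC with IL-1β and at 1.09, 2.80 and 3.23 CPM with IL-1β+LOXL2. In MLC it was at 1.76, 2.88 and 2.47 CPM and at 2.79, 3.44 and 3.20 CPM, and the groups overlapped in both layers (adjusted p over both layers = 0.0654). IRF1, induced by cytokines including interferon gamma, was at 45.3, 36.0 and 42.0 CPM in SLC with IL-1β and at 37.7, 67.5 and 55.4 CPM with IL-1β+LOXL2. The MLC values were 38.7, 45.3 and 36.8 CPM and 44.1, 44.2 and 45.2 CPM, again overlapping, and its log2 fold change over both layers was 0.26 ± 0.12 (adjusted p = 0.0911). IRF2, an antagonist of IRF1, was close to 0 in log2 fold change (−0.06, adjusted p = 0.520).

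Among 15 antiviral effectors tested, 4 rose over both layers (IFI6, BST2, IFI35 and IFIT3), 1 fell (ADAR) and 10 did not pass, where 26.6% of all genes rose and 24.2% fell. IFI6, a small interferon-induced membrane protein on chromosome 2 (10302852 to 10306587), had the largest rise of the set over both layers. It was at 50.9, 54.5 and 52.5 CPM in SLC with IL-1β and at 58.7, 162 and 114 CPM with IL-1β+LOXL2. MLC libraries held 40.5, 44.3 and 40.2 CPM and 56.3, 74.2 and 84.3 CPM. The groups did not overlap in either layer, and the first SLC IL-1β+LOXL2 library lay just above the IL-1β range. IFI6 rose 1.91-fold over both layers (log2 fold change 0.93 ± 0.19, adjusted p = 0.00521) and by 0.78 ± 0.14 on the log2 scale in MLC (adjusted p = 0.0187).

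BST2, the protein tetherin that holds budding virus at the cell surface, reached at most 35 counts in a library, at 0.266 to 1.47 CPM. Its groups overlapped in each layer, and it rose over both layers by 0.90 ± 0.34 on the log2 scale (adjusted p = 0.0416). IFI35 rose by 0.45 ± 0.16 (adjusted p = 0.0318) with overlapping groups in each layer. IFIT3, a member of the family that binds foreign RNA ends, rose by 0.31 ± 0.12 (adjusted p = 0.0446). ADAR, which edits double-stranded RNA and so keeps self RNA from being sensed, fell by 0.33 ± 0.09 (adjusted p = 0.00969), from 145 to 146 CPM in SLC with IL-1β to 89.1 to 131 CPM with IL-1β+LOXL2, and from 128 to 133 CPM to 99.0 to 118 CPM in MLC. Without the third MLC IL-1β library, or without the third MLC IL-1β+LOXL2 library, 11 members passed over both layers, and BST2, IFI35, IFIT3, IRF3 and HERC6 were not among them. How many of all genes passed in those fits is not given here. The loss may therefore not be particular to these members.

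The MX genes, RSAD2 and CMPK2 passed in no LOXL2 comparison as first fitted with edgeR. MX1, a dynamin-like GTPase that blocks viral entry and replication, was at 22.9, 24.7 and 24.6 CPM in SLC with IL-1β and at 22.4, 29.7 and 23.5 CPM with IL-1β+LOXL2. The MLC values were 39.2, 34.0 and 35.1 CPM and 34.7, 34.5 and 35.9 CPM. The groups overlapped in both layers, and the log2 fold change over both was 0.01 with a 95% interval of −0.16 to 0.19 (adjusted p = 0.901). MX2 had −0.13 (adjusted p = 0.514). RSAD2 (viperin) had −0.05 (95% interval −0.52 to 0.43, adjusted p = 0.877), and CMPK2, its neighbour on chromosome 11, had −0.06 (adjusted p = 0.529).

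IFIT2 and IFIT5, relatives of IFIT3, had log2 fold changes over both layers of −0.20 (adjusted p = 0.132) and −0.23 (adjusted p = 0.0745). IFI44L had 0.13 and IFI44 0.07, neither past the threshold (adjusted p = 0.192 and 0.860). SAMHD1, which depletes the nucleotides that viruses need, had −0.12 (adjusted p = 0.400), and XAF1, a proapoptotic interferon target, had 0.24 (adjusted p = 0.450). The intervals of IFI44 (−0.56 to 0.69) and XAF1 (−0.32 to 0.80) were wide at 10 to 38 and 24 to 135 counts per library.

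**Figure D3:**
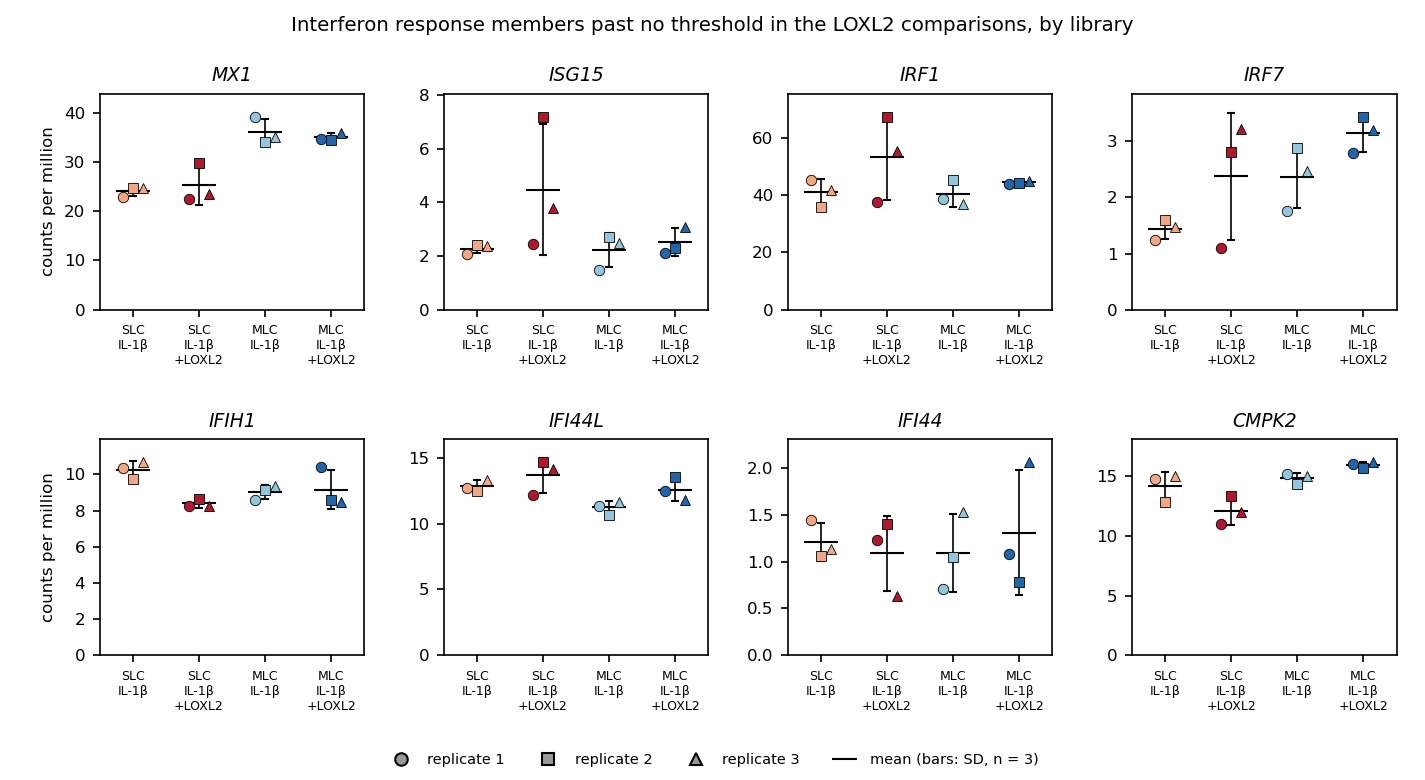
CPM by library of 8 members of the interferon response that passed in none of the LOXL2 comparisons as first fitted with edgeR, with means and SD (n = 3) as bars. ISG15, IRF1 and IRF7 each passed over both layers in 1 of the 12 fits that left out 1 library. MX1 overlapped between treatments in both layers, and ISG15 in SLC was highest in the second IL-1β+LOXL2 library, at 7.19 CPM.

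In the ISG15 system, which tags proteins with a ubiquitin-like modifier, ISG15 itself was at 2.06, 2.40 and 2.37 CPM in SLC with IL-1β and at 2.46, 7.19 and 3.77 CPM with IL-1β+LOXL2. In MLC it was at 1.48, 2.69 and 2.47 CPM and at 2.12, 2.29 and 3.09 CPM. The groups were apart in SLC by a narrow margin and overlapped in MLC. Its log2 fold change came to 0.97 ± 0.38 in SLC (adjusted p = 0.0983), 0.17 ± 0.28 in MLC (adjusted p = 0.669) and 0.58 ± 0.26 over both (adjusted p = 0.0756). HERC6, a ligase that attaches ISG15 in some mammals, fell by 0.58 ± 0.19 on the log2 scale over both layers (adjusted p = 0.0275), and its groups did not overlap in either layer. TRIM25, the ligase that assists RIG-I, fell by 0.31 ± 0.09 (adjusted p = 0.0150).

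Of the 4 genes of the PARP family and its partner, 3 fell over both layers, where 24.2% of all genes fell. DTX3L, a ubiquitin ligase that pairs with PARP9, was at 32.5, 32.8 and 33.5 CPM in SLC with IL-1β and at 25.0, 18.9 and 21.9 CPM with IL-1β+LOXL2. MLC libraries held 27.2, 28.6 and 30.0 CPM and 27.5, 22.2 and 22.5 CPM. SLC groups did not overlap, whereas the first MLC IL-1β+LOXL2 library lay within the IL-1β range. DTX3L fell by 0.42 ± 0.08 on the log2 scale over both layers (adjusted p = 0.00514), the smallest p of the set.

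PARP14, an ADP-ribosyltransferase, was at 36.8, 34.7 and 33.3 CPM in SLC with IL-1β and at 28.8, 20.1 and 24.0 CPM with IL-1β+LOXL2. The MLC values were 29.8, 28.4 and 31.1 CPM and 27.8, 23.7 and 21.4 CPM. Neither layer overlapped, and PARP14 fell by 0.41 ± 0.10 (adjusted p = 0.00635). PARP9 was at 14.7, 12.7 and 11.7 CPM in MLC with IL-1β and at 9.71, 9.96 and 9.23 CPM with IL-1β+LOXL2, without overlap. It fell in MLC by 0.44 ± 0.14 (adjusted p = 0.0404) and over both layers by 0.31 ± 0.08 (adjusted p = 0.0102), and its SLC groups overlapped. PARP9 and DTX3L overlap at their ends on chromosome 1, with PARP14 next to them, so part of their reads could be shared. PARP12 had a log2 fold change of −0.06 (adjusted p = 0.684).

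For antigen presentation, B2M, the light chain of MHC class I, was at 287, 281 and 313 CPM in SLC with IL-1β and at 334, 465 and 421 CPM with IL-1β+LOXL2. In MLC it was at 262, 288 and 267 CPM and at 308, 321 and 336 CPM. The groups did not overlap in either layer, and B2M rose 1.28-fold over both (log2 fold change 0.36 ± 0.08, adjusted p = 0.00585). TAP1, which carries peptides to class I molecules, had a log2 fold change of 0.02 (95% interval −0.13 to 0.18, adjusted p = 0.798).

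Within SLC the groups of 13 of 36 members did not overlap, against 48.9% of all genes, and within MLC those of 12 of 35, against 41.2%. Of the 35 members tested in both layers, 8 had groups that did not overlap and lay the same way in both. B2M and IFI6 were higher in both, a class that holds 14.6% of all genes. ADAR, STAT2, PARP14, EIF2AK2, DDX58 and HERC6 were lower in both, a class that holds 14.8%. The 8 members with the smallest p over both layers, PARP9 and the usual readouts were followed through the 12 fits that left out 1 library. EIF2AK2, DDX58, IFI6, DTX3L, PARP14, B2M, STAT2, IRF9 and PARP9 passed over both layers in all 12. They were picked by their values in these same libraries, so this is no independent support. Other members that passed over both layers, such as ADAR and TRIM25, were not followed. The share of all genes that passed in all 12 fits is not given here. Of the usual readouts, ISG15, IRF1 and IRF7 each passed in 1 of these 12 fits, and in 1 of the 6 such fits within SLC. MX1 and IFIH1 passed in 0 of them.

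The members' fold changes followed the length of the gene in the genome, as did those of all genes. Over both layers, Spearman's rho between log2 fold change and genomic span was −0.69 across the 36 members and −0.48 across all genes with a span, as a description across genes that share the same libraries. The 7 members that rose had a median span of 5535 bases (2896 to 13379), and the 9 that fell a median of 33630 bases (9127 to 53205). Among genes of up to 8000 bases the median log2 fold change was 0.49 for 10 members and 0.32 for all genes, and above 30000 bases it was −0.17 for 13 members and −0.23 for all genes. The part of this relation in the members' changes was not tested further than by removing the trend. With the trend over all genes removed, 13 members passed over both layers, against 43.7% of all genes. EIF2AK2 (log2 fold change −1.31), DDX58 (−0.98), DTX3L (−0.56), STAT2 (−0.37), TRIM25 (−0.29), PARP14 (−0.25) and PARP9 (−0.25) were still lower, and IFI6 (0.67), IRF9 (0.32) and B2M (0.14) were still higher. ADAR, HERC6, IRF3, IFI35, BST2 and IFIT3 no longer passed, and IFIT2 and IFIT5 (lower) and IRF2 (higher) did.

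**Figure D4:**
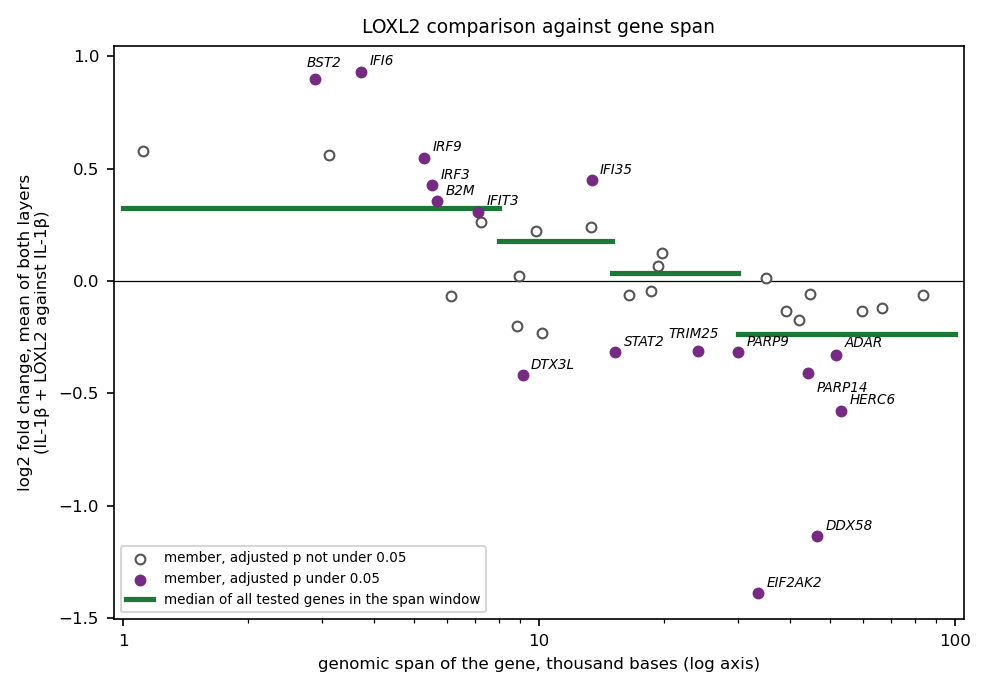
Log2 fold change over both layers of each member tested against its genomic span (log axis), with the median of all tested genes in 4 span windows as green lines. Filled points passed an adjusted p of 0.05. Members that rose lie near or above the line of their window, which is 0.32 for genes of up to 8000 bases, while EIF2AK2 and DDX58 lie far below the line for genes above 30000 bases (−0.23).

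Of 129 names written for other genes of the pathway, 79 genes were tested over both layers. Of these, 21 rose and 20 fell, with a median log2 fold change of 0.01, where 26.6% of all genes rose and 24.2% fell. The largest rises that passed were those of TREX1 (0.76 ± 0.16, adjusted p = 0.00521), an exonuclease that clears cytosolic DNA, PSMB10 (0.74 ± 0.21, adjusted p = 0.0140), a subunit of the immunoproteasome, and IFI30 (0.70 ± 0.14, adjusted p = 0.00514), a lysosomal thiol reductase. The largest falls were those of the ligases TRIM56 (−1.15 ± 0.26, adjusted p = 0.00599) and RNF213 (−0.90 ± 0.16, adjusted p = 0.00485) and of CD274 (−0.81 ± 0.22, adjusted p = 0.0109), which encodes the checkpoint ligand PD-L1. TREX1, PSMB10 and IFI30 span 1852, 2583 and 3392 bases, and all genes of up to 8000 bases had a median of 0.32. Among the falls RNF213 spans 124080 bases, while TRIM56 (3564 bases) and CD274 (17159 bases) are shorter. The part of span in these changes was not tested. Of 9 genes tested for the interferon receptors and their kinases, JAK2 (−0.65 ± 0.14), JAK1 (−0.47 ± 0.09), TYK2 (−0.37 ± 0.07) and IFNAR1 (−0.22 ± 0.07) were among those that fell. None rose past the threshold, where 26.6% of all genes rose and 24.2% fell. These 4 were named after their values were seen. JAK2 and JAK1 span 115225 and 148336 bases, and all genes above 30000 bases had a median of −0.23. TYK2 (29264 bases) and IFNAR1 (29050 bases) lie in the window of 15000 to 30000 bases, with a median of 0.04. Of the interferon ligands with a row, IFNE held 1 to 10 counts in a library, IFNK at most 1 and IFNG 0, so no difference between groups was detectable in them at this depth.

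The second question was whether the LOXL2 effect differed between layers. No member passed the test of that difference, nor did any of the 14446 genes tested (0%). At an unadjusted p under 0.05 there were 0 members and 327 genes (2.26%), and DESeq2 also called 0 members. With sample quality weights in limma 8 members passed, 4 with each sign, against 24.3% of all genes. The intervals were wide: the difference of the log2 fold changes (MLC minus SLC) was 0.58 for EIF2AK2 (95% interval −0.66 to 1.83), 0.59 for DDX58 (−0.60 to 1.79), −0.31 for IFI6 (−1.13 to 0.52) and −0.81 for ISG15 (−1.92 to 0.31). TMEM173 had the largest, at −1.21 (−2.42 to 0.00, unadjusted p = 0.0502), on at most 50 counts in a library. Calls of a difference between the layers thus came only with sample quality weights, which called a similar share of all genes. With the wide intervals, a difference for single members can be neither shown nor excluded.

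The third question was how the members differed between the cell sources. Under IL-1β alone 8 of 36 members passed between MLC and SLC, against 25.8% of all genes: MX2 and MX1 were higher in MLC, and IFIT3, TMEM173, RSAD2, PARP12, IFIT2 and IFIT5 were lower. With IL-1β+LOXL2 12 of 36 passed, against 29.1%: MX2, MX1, CMPK2 and HERC6 were higher in MLC, and IFIT3, TMEM173, PARP12, IFIT2, PARP9, IFIT5, IRF9 and B2M were lower. TMEM173, counted in both, entered these comparisons only through the count filter in SLC, the layer where it was higher. The 2 comparisons hold different libraries but share an estimate of the spread. Counts of the 2 layers came from tables of the same rows and were scaled together here.

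The IFIT genes were lower in MLC. IFIT3 was at 24.7, 16.9 and 22.9 CPM in SLC with IL-1β and at 8.32, 8.06 and 6.53 CPM in MLC. With IL-1β+LOXL2 it was at 25.6, 33.7 and 31.3 CPM in SLC and at 8.63, 7.31 and 9.01 CPM in MLC. Every SLC library lay above every MLC library. The log2 difference was −1.49 ± 0.17 (adjusted p = 4.09e-05) with IL-1β and −1.86 ± 0.17 (adjusted p = 5.98e-06) with IL-1β+LOXL2.

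IFIT2, next to IFIT3 on chromosome 26, was at 9.14, 8.52 and 8.79 CPM in SLC with IL-1β and at 4.73, 5.31 and 6.20 CPM in MLC. With IL-1β+LOXL2 it was at 8.06, 6.52 and 8.86 CPM and at 4.96, 4.44 and 4.45 CPM. The layers did not overlap under either treatment, with log2 differences of −0.70 ± 0.15 (adjusted p = 0.00441) and −0.75 ± 0.15 (adjusted p = 0.00260). IFIT5 was lower in MLC by log2 differences of −0.47 and −0.51 (adjusted p = 0.0286 and 0.0184).

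Both MX genes were higher in MLC. MX2 was at 1.24, 1.55 and 1.18 CPM in SLC with IL-1β and at 3.10, 2.88 and 4.27 CPM in MLC. With IL-1β+LOXL2 it was at 0.957, 1.47 and 1.14 CPM in SLC and at 3.05, 3.51 and 2.93 CPM in MLC. The layers did not overlap, and MX2 was 2.56-fold higher in MLC with IL-1β (log2 difference 1.36 ± 0.23, adjusted p = 9.14e-04) and 2.62-fold with IL-1β+LOXL2 (1.39 ± 0.23, adjusted p = 6.69e-04). MX1, whose per-library values are given above, was higher in every MLC library than in every SLC library, by 0.58 ± 0.11 (adjusted p = 0.00222) and 0.47 ± 0.11 (adjusted p = 0.00729) on the log2 scale.

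TMEM173 was at 0.847, 0.262 and 0.667 CPM in MLC with IL-1β and at 0.362, 0.358 and 0.380 CPM with IL-1β+LOXL2, below every SLC library. The log2 difference from SLC was −1.14 ± 0.38 with IL-1β (adjusted p = 0.0418) and −2.35 ± 0.38 with IL-1β+LOXL2 (adjusted p = 5.51e-04), on 4 to 50 counts in a library. TMEM173 passed the count filter only in SLC, the layer where it was higher. The filter thus favoured this direction, and these p-values are no support for a layer difference. PARP12 was at 11.9, 10.7 and 9.53 CPM in SLC with IL-1β against 4.87, 6.55 and 4.67 CPM in MLC, and at 10.4, 9.40 and 9.18 CPM against 6.05, 4.66 and 5.70 CPM with IL-1β+LOXL2. These did not overlap either, with log2 differences of −0.996 ± 0.16 (adjusted p = 6.36e-04) and −0.81 ± 0.16 (adjusted p = 0.00221).

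RSAD2 and HERC6 passed under 1 treatment each. RSAD2 was at 5.83, 4.21 and 3.01 CPM in SLC with IL-1β and at 2.05, 1.77 and 2.33 CPM in MLC, without overlap (log2 difference −1.08 ± 0.31, adjusted p = 0.0225). With IL-1β+LOXL2 its values of 2.55, 3.98 and 4.64 CPM in SLC and 2.79, 2.44 and 1.52 CPM in MLC overlapped (adjusted p = 0.0935). HERC6 was at 4.65, 4.35 and 4.59 CPM in SLC with IL-1β and at 6.14, 6.03 and 7.20 CPM in MLC (log2 difference 0.51 ± 0.27, adjusted p = 0.197). With IL-1β+LOXL2 it was at 2.92, 1.25 and 3.64 CPM in SLC and at 5.53, 4.66 and 5.10 CPM in MLC, and the log2 difference of 0.99 ± 0.28 passed (adjusted p = 0.0192). The layers did not overlap for HERC6 under either treatment, and the change of the layer difference with LOXL2 did not pass for either gene (adjusted p = 0.958 for both).

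The layer calls depended on which libraries shared the spread. Fitted on the 6 libraries compared, 20 members passed under IL-1β, against 46.2% of all genes, and 5 passed with IL-1β+LOXL2, against 15.9%. IFIT3, MX2, PARP12, IFIT2 and TMEM173 passed in both of these fits, which TMEM173 entered only through its SLC counts. TMEM173 under IL-1β passed in 4 and RSAD2 under IL-1β in 8 of the 12 fits that left out 1 library, while IFIT3, MX2, PARP12, IFIT2 and MX1 passed in all 12 under both treatments. Other members called between layers, such as IFIT5, were not followed through these fits. The summed level of the chondrocyte markers also differed between layers (137 to 146 CPM in SLC and 607 to 712 CPM in MLC), and its part in these differences was not tested.

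**Figure D5:**
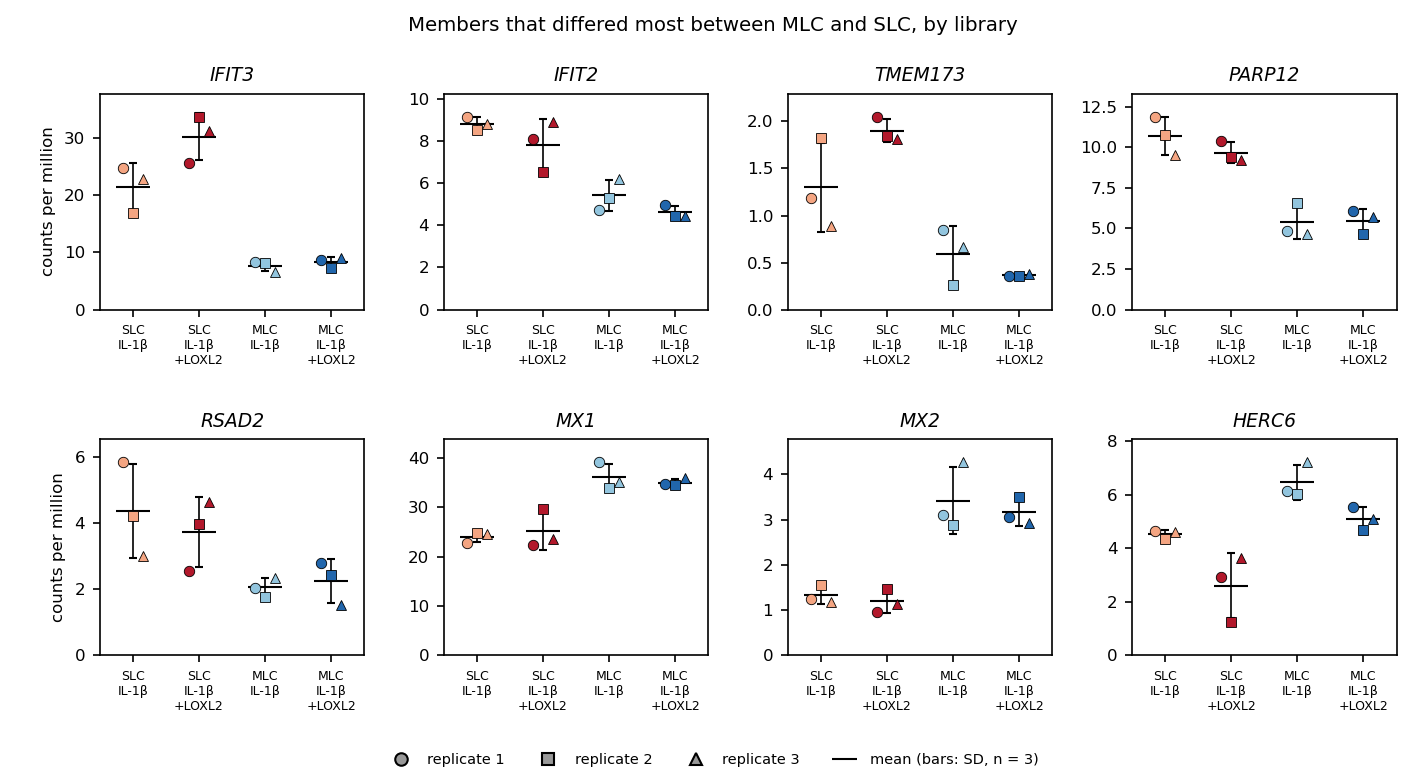
CPM by library of 8 members that passed between MLC and SLC, with means and SD (n = 3) as bars. IFIT3, IFIT2, TMEM173 and PARP12 are lower in every MLC library (blue) than in every SLC library (red), and MX1, MX2 and HERC6 are higher, while RSAD2 overlaps with IL-1β+LOXL2. TMEM173 passed the count filter only in SLC.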

How the data were processed

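RNA of goat TMJ cells was sequenced in 12 libraries, 3 for each layer and treatment. For each layer the authors deposited a table of raw read counts by gene. The submitters' processing notes name HISAT2 and featureCounts, and the genome was ARS1.2. Settings for strand and for reads with several matches are not given in the sources used here, so overlapping genes (PARP9 with DTX3L, STAT2 with IL23A, and IRF1, SAMHD1, IFI35 and HERC6 with a neighbour) are uncertain. The labels name an RNeasy kit and the methods TRIzol for extraction. Symbols were matched to RefSeq, which also gave coordinates and genomic spans. Transcript lengths were not at hand, so levels were not compared between genes.

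Genes with 10 counts or more in 3 of the 6 libraries of a layer entered edgeR's quasi-likelihood test (edgeR 4.0.16, R 4.3.3, TMM factors, glmQLFit and glmQLFTest without a replicate block), within each layer and in 1 fit over all 12 libraries, which gave the mean LOXL2 effect, the layer differences and their interaction for genes that passed in at least 1 layer. P-values were adjusted over all genes tested (Benjamini-Hochberg, threshold 0.05). The SE was taken as the log2 fold change over the square root of the F statistic. CPM used TMM factors over all 12 libraries. Every replicate pair differed by more than sampling noise, with a chi-square of at least 2.30 per degree of freedom. Alternatives were DESeq2 1.42.0, limma 3.58.1 (voom with sample quality weights), other size factors and filters, a replicate block, removal of the span trend (lowess), other sets of libraries, and leaving out each library.

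The members, gene lists and tests were chosen with earlier results of these data known. Members with per-library values were the 8 with the smallest p over both layers, the 6 with the largest layer differences in each comparison, and the usual readouts; PARP9 and the 4 receptor and kinase genes were named after their values were seen, and every other member was given by its fold change or range. Pathway genes named by rule were at most 3 in each direction, and a pathway gene that the rule also named is not reported here. Promoter motifs were not searched, since no promoter sequence was at hand.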

Additional observations from a re-analysis of the deposited data

How the results depend on the processing

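With other size factors, filterByExpr or no filter on low counts, each count of members past the threshold stayed within 1.5 times the value in the report. Sample quality weights in limma raised them most, to 24 in SLC (75.6% of all genes passed), 23 in MLC (67.2%), 29 over both layers (78.2%), 21 and 24 between layers with IL-1β (52.8%) and IL-1β+LOXL2 (72.5%), and 8 for the interaction (24.3%), where all other alternatives gave 0. DESeq2 gave 7 in SLC, and a fit of the within-layer effects on all 12 libraries gave 15 in SLC and 0 in MLC. On the 6 libraries compared, the layer counts were 20 and 5. Leaving out 1 library gave 0 to 21 members in SLC, 0 to 16 in MLC, 11 to 23 over both layers, 5 to 11 and 9 to 21 between layers, and 0 to 0 for the interaction, and the highest value came in each case but the last without the first IL-1β+LOXL2 library of SLC or, for MLC, of MLC. In the fits with these highest values, 62.3% of all genes passed in SLC, 48.1% in MLC, 63.5% over both layers, and 34.8% and 47% between layers. The shares of the other fits that left out 1 library are not given here. Leaving out the first IL-1β+LOXL2 library of both layers, chosen after seeing the data, gave 21 between layers with LOXL2, against 42.6% of all genes. The cause of these shifts was not tested.

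IRF2 over both layers changed from −0.06 to a log2 fold change of 0.23 that passed when the span trend was removed. Among the genes with per-library values, the sign changes were of differences that passed no threshold. With sample weights the log2 fold change was −0.0479 for MX1 in SLC, −0.0813 for IFIH1 in MLC and −0.0394 for MX1 over both layers. With the span trend removed it was 0.0451 for MX1, −0.0602 for ISG15 and −0.00787 for IRF1 in MLC, and 0.105 for IFIH1 over both layers. Leaving out 1 library gave −0.0774 to 0.130 for MX1 in SLC, −0.0858 to 0.0218 for MX1 in MLC, −0.0385 to 0.335 for ISG15 in MLC, −0.0816 to 0.0777 for IFIH1 in MLC, −0.0594 to 0.0530 for MX1 over both layers and −0.249 to 0.105 for TMEM173 over both layers.

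The correlation of same-numbered libraries' deviations from their group means ran from −0.29 to 0.22 in SLC and from −0.10 to 0.17 in MLC. For libraries with different numbers it ran from −0.36 to 0.32 in SLC and from −0.21 to 0.15 in MLC. Deviations within a group depend on each other, so these values do not show whether replicate numbers pair the samples. Pairing itself was not tested. With the replicate number as a block, the members past the threshold were 0 in SLC, 7 in MLC, 17 over both layers, 7 and 12 between layers and 0 for the interaction. The share of all genes that passed with the block is not given here, so these counts say nothing particular to the members. Depth limited BST2, TMEM173, IRF7, IFI44 and MX2, which held under 100 counts in every library.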
